A study of Mus musculus with 104 samples.

Results

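The comparison concerns 7 mouse liver libraries, 4 from postnatal day 1 (P1) and 3 from P10, out of the 104 samples of the series. They were taken by tissue, age and assay as the labels give them, and are P1 replicates 1, 2, 3 and 5 and P10 replicates 1, 2 and 4. All came from C57BL/6 mice (C57BL/6J in the study's methods) with no treatment and no altered gene, the labels give no sex for them, and a library stands for the liver of a single mouse. Reduced representation bisulfite sequencing (RRBS) cuts DNA at CCGG sites, converts unmethylated cytosines and reads the methylated share of molecules at single CpGs, so it covers mostly CpG-rich DNA. A CpG was tested when it had at least 3 values at P1 and 2 at P10, which kept 69804 of the 70259 CpGs of the liver table (99.4%). The question was how far liver methylation moved over the first suckling days.

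A methylated CpG carries a methyl group on its cytosine, added by the de novo enzymes Dnmt3a and Dnmt3b and copied at cell division by Dnmt1. It can be lost when it is not copied or when Tet enzymes oxidize it. After birth the mouse liver ceases to be a site of blood formation, its hepatocytes go on dividing, and it takes up the metabolic work that milk demands. Whole liver was sampled, so a changed mix of cells and a changed level within a cell type cannot be told apart in these values.

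The libraries differed in how completely they were covered. Of the tested CpGs, 0 to 5.39% lacked a value in a P1 library and 2.43% to 6.41% in a P10 library. Values of exactly 100% made up 0.125% to 5.43% of a P1 library and 8.63% to 14.2% of a P10 library, and their part in the results was not tested. The tables give no number of reads behind a single value, for which the authors set a minimum of 10 and the study states only averages, so no counting interval is given.

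Sequences of 10 regions are shown first, because the results turn on them. They are the plus strand of mm9 from 5′ to 3′, with the measured CpGs in capitals. Mn1, at chr5:111848236-111848535 in coding sequence, is the CpG-rich gain with most measured CpGs. Stat5a, at chr11:100740998-100741150 and overlapping coding sequence, and Fgg, at chr3:82816716-82816929 in coding exons, are the called changes among listed growth hormone signalling and plasma protein genes. Scarb1, at chr5:125766424-125766590 in an annotated exon, is a loss at a lipoprotein receptor gene. Tnfrsf9, at chr4:150298256-150298336 in an intron, and Smcr7, at chr11:60543010-60543082 in an intron, are strong changes over 3 CpGs each, and the region at chr17:88831018-88831213 lies 8858 bases from Foxn2, its nearest gene. The regions named after Ehbp1 (chr11:21904663-21904886), Bmf (chr2:118336246-118336495) and Rab3a (chr8:73277196-73277417) were measured by amplicon sequencing, carry the name of the nearest gene and hold no annotated exon.
Mn1: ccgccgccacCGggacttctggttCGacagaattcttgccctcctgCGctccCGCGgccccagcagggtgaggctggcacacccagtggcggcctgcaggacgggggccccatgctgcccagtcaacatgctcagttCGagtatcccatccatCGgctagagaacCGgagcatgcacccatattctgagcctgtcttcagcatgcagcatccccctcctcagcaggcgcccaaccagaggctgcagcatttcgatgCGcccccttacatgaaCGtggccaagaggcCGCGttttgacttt
Stat5a: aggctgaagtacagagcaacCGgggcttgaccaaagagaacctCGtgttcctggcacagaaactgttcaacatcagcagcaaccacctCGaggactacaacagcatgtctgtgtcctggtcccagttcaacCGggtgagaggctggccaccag
Fgg: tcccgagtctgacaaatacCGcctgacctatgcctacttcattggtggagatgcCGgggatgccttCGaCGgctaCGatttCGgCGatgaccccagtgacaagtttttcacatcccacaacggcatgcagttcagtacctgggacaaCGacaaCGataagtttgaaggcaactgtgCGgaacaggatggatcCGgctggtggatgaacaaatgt
Scarb1: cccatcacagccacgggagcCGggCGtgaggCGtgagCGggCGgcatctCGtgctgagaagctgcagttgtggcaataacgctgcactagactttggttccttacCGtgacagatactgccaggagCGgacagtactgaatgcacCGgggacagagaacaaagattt
Tnfrsf9: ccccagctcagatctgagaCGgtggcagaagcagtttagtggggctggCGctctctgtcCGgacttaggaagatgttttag
Foxn2: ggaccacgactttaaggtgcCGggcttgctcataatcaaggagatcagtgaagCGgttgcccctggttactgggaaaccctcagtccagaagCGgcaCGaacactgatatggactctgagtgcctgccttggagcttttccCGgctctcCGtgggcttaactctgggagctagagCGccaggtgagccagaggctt
Smcr7: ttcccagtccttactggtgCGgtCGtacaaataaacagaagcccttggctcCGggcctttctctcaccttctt
Ehbp1: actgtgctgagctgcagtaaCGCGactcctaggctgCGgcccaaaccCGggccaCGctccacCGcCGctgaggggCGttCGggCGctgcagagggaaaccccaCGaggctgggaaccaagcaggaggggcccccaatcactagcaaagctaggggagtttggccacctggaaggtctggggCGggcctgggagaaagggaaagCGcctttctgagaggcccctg
Bmf: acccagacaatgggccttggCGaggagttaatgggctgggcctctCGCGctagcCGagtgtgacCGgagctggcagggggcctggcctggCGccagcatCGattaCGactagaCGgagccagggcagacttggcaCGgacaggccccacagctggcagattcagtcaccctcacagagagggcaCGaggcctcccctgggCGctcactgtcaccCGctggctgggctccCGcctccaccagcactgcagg
Rab3a: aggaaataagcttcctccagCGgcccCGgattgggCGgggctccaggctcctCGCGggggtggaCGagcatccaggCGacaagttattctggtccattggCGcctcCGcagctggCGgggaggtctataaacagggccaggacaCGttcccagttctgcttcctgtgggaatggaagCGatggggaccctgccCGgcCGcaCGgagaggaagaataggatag
The Mn1 stretch of 300 bases holds 18 CpGs, 12 of them measured, and the 81 bases at Tnfrsf9 and the 73 at Smcr7 hold 3 each. The stretches differ in length, so these counts are not densities.

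Methylation was higher at P10 over most of the measured genome. At the 56560 CpGs with a value in all 7 libraries, the library means were 50.8%, 52.0%, 53.6% and 52.4% at P1 and 56.4%, 59.7% and 59.0% at P10. The lowest P10 library lay above the highest P1 library. The mean rose from 52.2% ± 1.15 (SD, n = 4) to 58.4% ± 1.74 (SD, n = 3), by 6.22 percentage points (exact permutation test over 35 assignments, two-sided p = 0.0286, the smallest that this design allows). Of the tested CpGs, 71.7% had a higher mean at P10, and the median difference was 5.94 points. With medians in place of means the ages differed by 8.09 points and the test was not passed (exact permutation p = 0.0571).

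The gain was found at every starting level and in every genic context. CpGs were sorted into 5 classes by their level in the E18.5 livers, which belong to neither group. The class of 0 to 20% rose from 8.35% ± 0.248 to 13.0% ± 1.10, and the class of 60 to 80% rose from 73.8% ± 1.46 to 81.3% ± 1.88 (SD over 4 and 3 libraries). The differences of the 5 classes ran from 4.66 to 7.54 points, and the ages did not overlap in any (exact permutation test, adjusted p = 0.0286 in each). Promoters, taken as 1 kb upstream of a start site, rose by 3.84 points, exons by 5.14, introns by 6.69 and intergenic CpGs by 7.0 (exact permutation test, adjusted p = 0.0286 in each). CpGs in sparse surroundings, with at most 5 CpGs in 401 bases, gained 9.53 points, whereas those with over 20 gained 2.89. These last values are a description of the order with density.

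**Figure D1:**
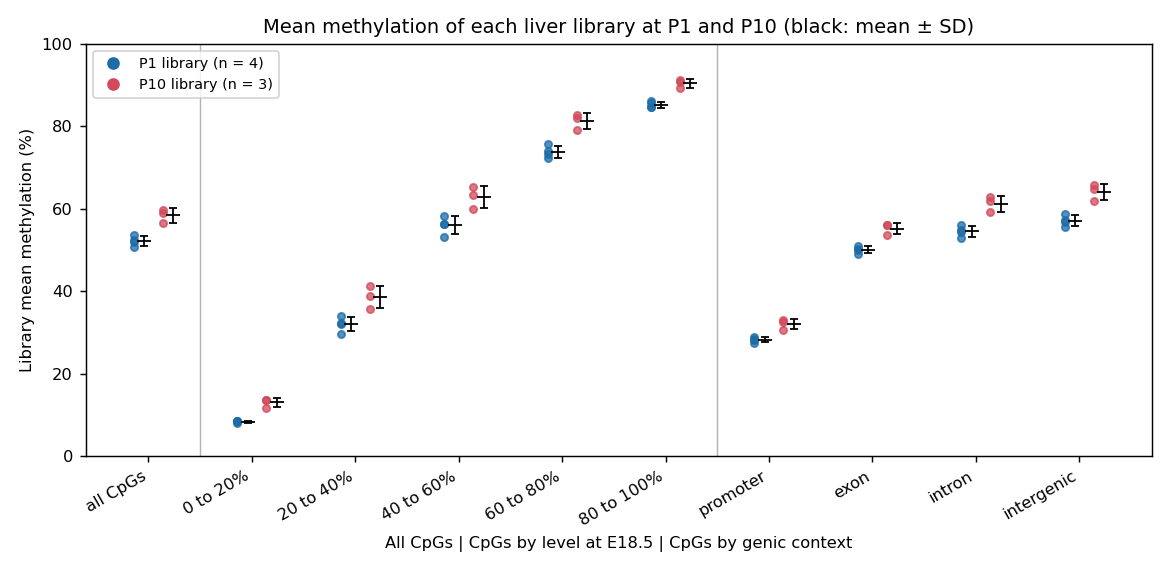
Mean methylation in percent (vertical axis) of each P1 library (n = 4) and each P10 library (n = 3) for all CpGs, for the classes of E18.5 level and for the genic contexts (horizontal axis), with mean and SD. In every column all P10 points lie above all P1 points, by 3.84 points at promoters and 7.54 in the class of 60 to 80%.

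No single CpG passed the main test on the 7 libraries, and the count depended on its settings. The limit was a p of 0.1 from limma after Benjamini-Hochberg adjustment, together with a difference over 5 points, and 0 of 69804 were called (0.0%), the lowest adjusted p being 0.105. On the same libraries 719 were called on the logit scale, 502 when only CpGs complete in 7 were tested, 42 without moderation and 455 with Storey q-values in that unmoderated fit. At an unadjusted p under 0.05 there were 11660 CpGs, 10294 higher at P10 (14.7%) and 1366 lower (1.96%). Between the group means, 1933 CpGs were higher and 291 lower by over 30 points. When limma was fitted to all 23 liver libraries, so that the other ages added to the estimate of the spread, 646 CpGs were called higher (0.925%) and 78 lower (0.112%). That total of 724 was 52 without P10 replicate 4, 140 without P10 replicate 2, 83 without P1 replicate 5, 115 without P1 replicate 2 and 135 without P1 replicate 1.

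Groups of neighbouring CpGs did pass. Windows of 1 kb with at least 3 tested CpGs were compared, the value of a library coming from a fit of CpG and library within the window. Of 7580 windows 795 were called (10.5%, limma, adjusted p of at most 0.1), 730 higher at P10 (9.63%) and 65 lower (0.858%). The median change was 19.5 points among the first and -20.0 among the second, and the extremes were 47.3 and -41.9. The ages did not overlap in 717 of the 730 and in 60 of the 65, beside 1651 higher (21.8%) and 151 lower (1.99%) non-overlapping windows among all tested.

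The general gain entered these calls, since the median window was 5.53 points higher at P10. After every library was shifted by its median deviation from the window means, which takes the gain away, 110 windows were called higher (1.45%) and 84 lower (1.11%). All 110 were among the 730, and 64 of the 84 were among the 65. Single libraries also mattered, and the total of 795 was 217 without P10 replicate 4, 280 without P10 replicate 2, 236 without P1 replicate 2, 335 without P1 replicate 5 and 379 without P1 replicate 3.

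**Figure D2:**
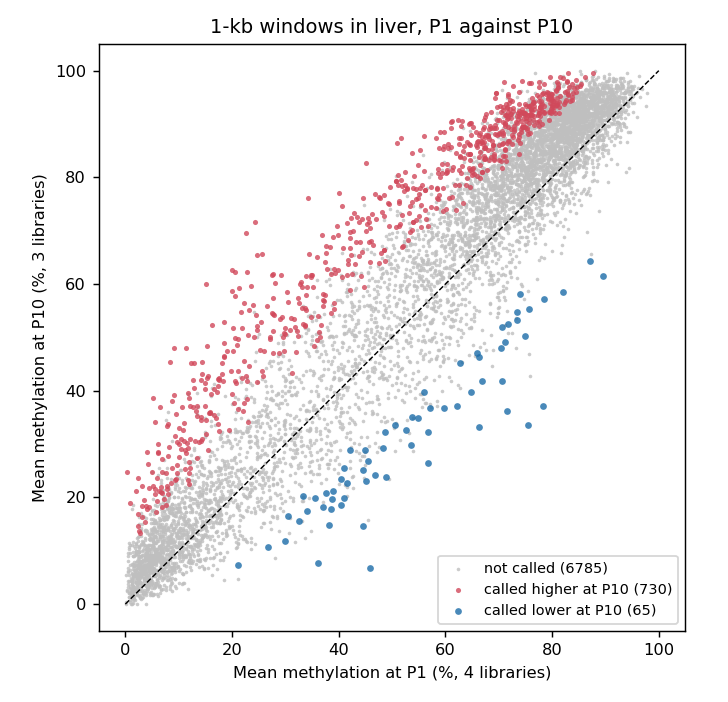
Mean methylation in percent of 7580 windows at P1 (horizontal axis, 4 libraries) and at P10 (vertical axis, 3 libraries), with the windows called higher (730) and lower (65) coloured and the others in grey. The cloud lies mostly above the line of equal values, and called windows start from low, middle and high levels.

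As a description, the windows that rose lay in CpG-poorer DNA than the rest. Their median density was 9.80 CpGs in 401 bases, that of the windows that fell was 9.0 and that of all windows 11.6. Of the windows with over 20 CpGs in 401 bases 4.26% rose, against 16.8% of those with at most 5. Windows at 20 to 40% in the E18.5 livers rose most often (15.1%) and those at 80 to 100% least often (3.36%). Among those that fell, 47 of 65 lay in a gene body (72.3%), beside 418 of the 730 that rose (57.3%) and 60.4% of all windows.

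Short motifs of liver and blood factors were counted on both strands in 300 bases around the window centres. The GATA letters AGATAA stood in 13.4% of the windows that rose, 12.3% of those that fell and 10.2% of all. The ETS letters GAGGAAGT were present in 5.34%, 0% and 2.25%, and the HNF4 letters CAAAGTCC in 1.10%, 1.54% and 1.44%. The FOXA letters TGTTTAC were present in 2.74% of the windows that rose, in 9 of the 65 that fell (13.8%) and in 3.5% of all. The CEBP letters TTGCNNAA were present in 9.18%, in 15 of the 65 (23.1%) and in 10.6%. A match is only a run of letters, and no test was made.

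The windows with most CpGs among those that rose were CpG-rich and low at P1. Mn1, which encodes a transcriptional coregulator, had 29 measured CpGs and stood at 19.4%, 15.9%, 17.0% and 17.0% in the P1 livers and at 37.4%, 44.8% and 44.4% in the P10 livers. Every P10 liver was above every P1 liver. The gain of 24.9 points passed (limma, adjusted p = 0.0231), did so with each library left out, and was 19.3 points after centring (limma, adjusted p = 0.0535). Fut11, a fucosyltransferase gene, was nearly unmethylated at P1, with 1.78%, 0.316%, 0.249% and 1.34%, and stood at 17.2%, 14.9% and 24.8% at P10. Its 27 CpGs rose by 18 points with no overlap (limma, adjusted p = 0.0410).

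Hic1, a transcriptional repressor gene, stood at 7.68%, 4.68%, 7.89% and 6.53% at P1 and at 16.4%, 18.4% and 31.3% at P10 over 26 coding CpGs. P10 replicate 4 was the highest, and the others were above all P1 livers too. The change was 15.3 points (limma, adjusted p = 0.0801), or 9.37 without P10 replicate 4. At the promoter window of Prkcz, an atypical protein kinase C gene, the P1 livers held 5.05%, 7.21%, 5.30% and 6.06% and the P10 livers 14.3%, 19.6% and 23.9% (limma, adjusted p = 0.0735). The adjusted p rose to 0.209 at Hic1 and to 0.167 at Prkcz with a library left out. After centring, the changes at Fut11, Hic1 and Prkcz were 12.4, 9.79 and 7.80 points and did not pass (limma, adjusted p = 0.149, 0.295 and 0.314).

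The windows with most CpGs among those that fell included a plasma protein gene and a lipoprotein receptor gene. Fgg encodes the gamma chain of fibrinogen, a clotting protein secreted by hepatocytes, and stood at 65.3%, 79.5%, 78.3% and 76.3% at P1 and at 55.8%, 52.3% and 42.7% at P10. All P10 livers were below all P1 livers. The change was -24.7 points over 12 measured positions at 11 CpGs (limma, adjusted p = 0.0395), or -30.2 points after centring. The limma adjusted p was 0.105 without P10 replicate 4. Scarb1, the receptor by which hepatocytes take up HDL cholesterol, stood at 75.2%, 83.1%, 76.5% and 79.2% at P1 and at 64.7%, 64.4% and 42.3% at P10. P10 replicate 4 was far below the other two, and the change of -21.4 points (limma, adjusted p = 0.0777) was -11.5 without it (limma, adjusted p = 0.179).

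Map3k1, a kinase gene of the MAP kinase cascade, stood at 71.6%, 70.4%, 78.1% and 75.9% at P1 and at 57.6%, 63.8% and 53.2% at P10 over 11 measured intronic positions (limma, adjusted p = 0.0670). C530008M17Rik stood at 15.3%, 21.3%, 21.0% and 26.8% at P1 and at 7.2%, 8.08% and 6.45% at P10 over 17 CpGs (limma, adjusted p = 0.0747). The ages did not overlap at either gene. With a library left out, the adjusted p reached 0.159 and 0.164, and on the logit scale Map3k1 did not pass (limma, adjusted p = 0.141). After centring Map3k1, C530008M17Rik, Fgg and Scarb1 all passed.

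**Figure D3:**
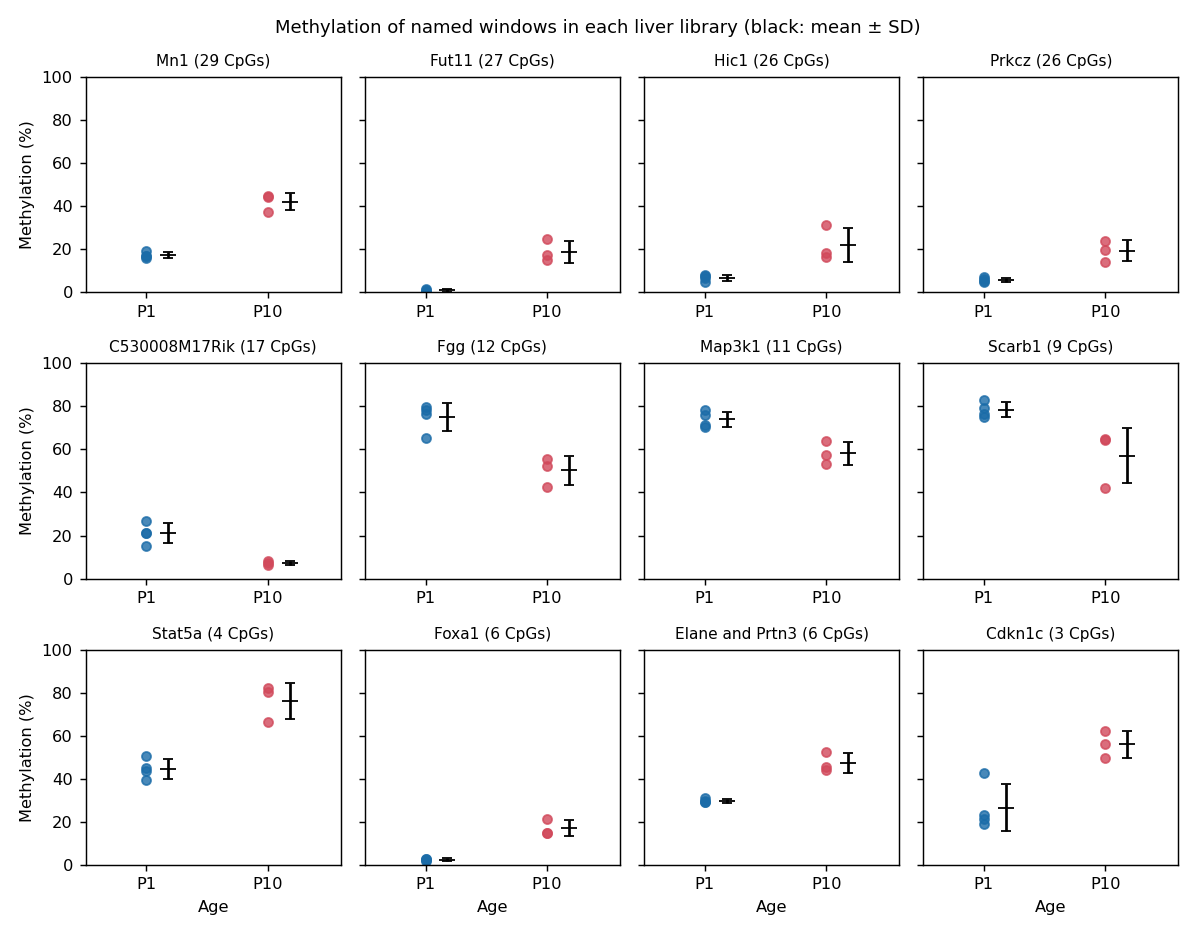
Methylation in percent (vertical axis) in each P1 and P10 library (points, with mean ± SD in black), with a panel for each of the 8 named windows and for those at Stat5a, Foxa1, Elane and Prtn3, and Cdkn1c. The ages do not overlap at Mn1 (15.9% to 19.4% against 37.4% to 44.8%) or at Fgg (65.3% to 79.5% against 42.7% to 55.8%).

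The windows described next were picked from the strongest changes after their values were seen, and do not follow the order of size. Gains of 47.0 points at Metap1d and 45.0 points at the window 21648 bases from Atp11b are not described further. Tnfrsf9, a costimulatory receptor gene of T cells, stood at 11.4%, 16.9%, 41.9% and 27.3% at P1 and at 60.6%, 71.2% and 83.3% at P10. The livers of each age were spread widely, yet the ages were apart by a gain of 47.3 points (limma, adjusted p = 0.0267). The promoter window of Itgal, an integrin gene of leukocytes, held 15.1%, 23.7%, 21.1% and 22.1% at P1 and 55.8%, 57.5% and 73.6% at P10 (limma, adjusted p = 0.0226). The window near Foxn2, a forkhead factor gene, held 20.7%, 25.1%, 34.0% and 22.7% at P1 and 69.8%, 67.8% and 59.4% at P10. Its 7 CpGs rose by 40.1 points (limma, adjusted p = 0.0226). Plekhh3 rose by 42.6 points over 14 CpGs, from 20.0% ± 8.72 to 62.6% ± 3.81 (SD, n = 4 and 3).

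The largest called loss, -41.9 points, lay at Vps37b (limma, adjusted p = 0.0478, and up to 0.138 with a library left out). The window 33686 bases from Gm12824 changed by -39.1 points (limma, adjusted p = 0.0249). Among the other strong losses, Smcr7, a mitochondrial dynamics gene, stood at 67.2%, 91.3%, 74.0% and 80.9% at P1 and at 37.4%, 39.7% and 34.6% at P10. The P10 livers lay close together and far below P1, a change of -41.1 points (limma, adjusted p = 0.0231). Mtss1, an actin-binding protein gene, stood at 94.4%, 90.6%, 86.5% and 86.5% at P1 and at 62.1%, 59.0% and 63.6% at P10, a change of -27.9 points (limma, adjusted p = 0.0231). Slc25a37 encodes mitoferrin, the mitochondrial iron carrier of erythroid cells, and stood at 70.0%, 60.8%, 79.3% and 75.9% at P1 and at 27.5%, 56.7% and 24.1% at P10. P10 replicate 2 came close to the lowest P1 liver, and the change was -35.4 points (limma, adjusted p = 0.0558). Uox, the urate oxidase gene of the liver, held 64.1%, 44.5%, 67.5% and 72.7% at P1 and 43.7%, 42.0% and 25.6% at P10 (limma, adjusted p = 0.0870). The lowest P1 liver lay just above the highest P10 liver. On the logit scale Uox did not pass (limma, adjusted p = 0.112). With a library left out, the limma adjusted p reached 0.149 at Slc25a37 and 0.221 at Uox.

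At single CpGs none of the 12 chosen by the rule passed, each with a limma adjusted p of 0.105, and their values are a description. Those with higher P10 means lay in Slamf6, Itgal, 4933407C03Rik, Nfix and Myof and 31050 bases from Scn8a, and differed by 40.8 to 59.7 points. At Itgal the CpG held 12.5%, 22.0%, 20.5% and 18.2% at P1 and 73.3%, 73.3% and 87.5% at P10. Those with lower P10 means lay in Golim4, Smcr7, Slc8a3, Map3k1 and Myo1e and 3950 bases from Dysfip1, and differed by -30.8 to -53.9 points. In the fit of all 23 libraries 9 of the 12 passed, and on the logit scale 7 did.

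Genes of growth hormone, insulin and IGF signalling had 1 called window among 10, a share near the 10.5% of all windows, with a median difference of 2.12 points beside 5.53 for all windows. Stat5a, which encodes a transcription factor activated by growth hormone and prolactin receptors, stood at 44.7%, 39.2%, 50.6% and 43.4% at P1 and at 66.4%, 80.1% and 81.9% at P10. All P10 livers exceeded all P1 livers. The gain of 31.6 points over 4 CpGs passed (limma, adjusted p = 0.0249), did so with each library left out, and was 26.1 points after centring (limma, adjusted p = 0.0535). The window of Stat5b, its close relative, differed by -14.3 points (limma, adjusted p = 0.223), that of Irs2, an insulin receptor substrate, by -18.9 (limma, adjusted p = 0.160) and that of Igf1r, the IGF1 receptor, by 22.3 (limma, adjusted p = 0.230).

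Genes for proteins that hepatocytes secrete had 0 windows called higher and 1 lower of 8, which was Fgg, beside 9.63% and 0.858% of all windows, and a median difference of -7.74 points beside 5.53 for all windows. Fgb, the beta chain of fibrinogen, differed by -11.5 points (limma, adjusted p = 0.355). The transferrin gene Trf had 2 windows that differed by -15.4 and -11.1 points and did not pass. The window of Afp, the fetal plasma protein alpha-fetoprotein, differed by 16.2 points (limma, adjusted p = 0.119). The mean difference over all 5 CpGs of Afp was 1.11 points. Of the 58 CpGs of the list, 10 were higher and 11 lower at P10 at an unadjusted p under 0.05, beside 14.7% and 1.96% of all CpGs, and 8 of the 11 lay in Fgg. Genes of the list without a tested window differed both ways. At Hamp, the iron hormone hepcidin, 1 CpG was 39.4 points higher, and at Serpina1a, an antitrypsin gene, 1 was 34.1 higher. The mean gain was 18.9 points at Kng1, a kininogen gene (2 CpGs), and 11.1 at Itih4 (2 CpGs). Mean differences were -11.0 points at F12 (1 CpG), -6.91 at Itih1 (4 CpGs), -2.58 at Ambp (2 CpGs) and 0.0488 at Apoe (2 CpGs). None of these CpGs passed the main test. Genes of hepatocyte metabolism had no call among 13 windows, with a median of 4.88 points. At Pck1, the gluconeogenic enzyme PEPCK, the mean of 3 CpGs stood at 66.9% at P1 and 40.8% at P10, with 3 of 3 at an unadjusted p under 0.05 but in no tested window.

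Liver transcription factor genes had 3 windows called higher of 30, near the 9.63% of all windows and all of them low at P1, with a median of 8.68 points. The window 4494 bases from Foxa1, a pioneer factor of endoderm, stood at 2.91%, 2.73%, 2.17% and 1.63% at P1 and at 14.8%, 14.8% and 21.3% at P10 (limma, adjusted p = 0.0558). Esr1, the estrogen receptor gene, went from 3.47% ± 2.19 to 19.5% ± 8.99 (SD, n = 4 and 3, limma adjusted p = 0.0843). The window 1794 bases from Tbx3, a factor of hepatoblasts, went from 7.63% ± 1.77 to 18.6% ± 3.33 (SD, n = 4 and 3, limma adjusted p = 0.0976). After centring the changes at Foxa1, Esr1 and Tbx3 were 9.06, 10.5 and 5.42 points and did not pass. With a library left out, their limma adjusted p reached 0.127, 0.203 and 0.209.

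Genes of blood cells had 4 windows called higher and 1 lower of 35, beside 9.63% and 0.858% of all windows, with a median of 2.69 points. The window shared by Elane and Prtn3, neutrophil protease genes, stood at 29.1%, 29.6%, 30.9% and 29.1% at P1 and at 44.2%, 45.4% and 52.6% at P10. The P1 livers were nearly alike and all P10 livers were higher (limma, adjusted p = 0.0389, and 0.112 on the logit scale). Gata2, a factor of blood progenitors, had an exonic window that rose by 23.4 points (limma, adjusted p = 0.0635) and an intronic one that went from 44.6% to 25.2%, a change of -19.4 (limma, adjusted p = 0.0722). Erg, a factor of blood stem cells and endothelium, rose by 23.5 points, and Pax5, the B cell factor, by 15.3 (limma, adjusted p = 0.0731 and 0.0719). Without P10 replicate 4 the change at Erg was 15.6 points (limma, adjusted p = 0.126). Pax5 did not pass on the logit scale (limma, adjusted p = 0.106) or in any of the 5 fits without a library that could be made (limma, adjusted p = 0.109 to 0.158), and the exonic Gata2 window reached 0.163. Of these windows the intronic one of Gata2 passed after centring and the 4 that rose did not.

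The remaining lists had at most 1 window called each, beside 10.5% of all windows. Cell cycle genes had 1 of 9 (median 2.78 points), the window 4402 bases from Cdkn1c, a cell cycle inhibitor, which stood at 23.2%, 18.8%, 42.6% and 21.3% at P1 and at 49.5%, 62.2% and 56.1% at P10 (limma, adjusted p = 0.0439). Imprinted genes had 1 of 17 (median 6.06 points), at Snrpn, which stood at 32.0%, 5.51%, 26.6% and 17.8% at P1 and at 29.5%, 72.8% and 71.2% at P10 and thus overlapped (limma, adjusted p = 0.0867). Skeletal and cardiac muscle genes had 1 of 17 (median 3.52 points), at Myh3, an embryonic myosin gene that rose by 16.4 points (limma, adjusted p = 0.0968). The DNA methylation machinery had no call among 4 windows (median 5.56 points), and genes of bile duct, stellate, endothelial and Kupffer cells none among 12 (median 0.604 points). After centring, none of Cdkn1c, Snrpn and Myh3 passed, and with a library left out their limma adjusted p reached 0.125, 0.223 and 0.212. The median of a list was also relative to the general gain, and after centring it was -13.3 points for secreted proteins, 3.1 for liver transcription factors, -2.87 for blood cell genes, -3.44 for growth hormone, insulin and IGF signalling, -0.679 for metabolism, -2.78 for the cell cycle, 0.00273 for the methylation machinery, 0.499 for imprinted genes, -2.04 for muscle genes and -4.95 for the other liver cells, beside -0.0323 for all windows.

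The livers of other ages, which took no part in the choice of windows, placed these changes in time. Over the 730 windows that rose, the mean of the libraries was 48.7% ± 2.13 at E18.5 (n = 4), 58.1% ± 3.45 at P5 (n = 4), 68.4% ± 1.52 at P15 (n = 3) and 68.7% ± 1.76 at P20 (n = 5), with SD over libraries. The 65 that fell had means of 50.5% ± 4.15, 41.3% ± 1.41, 32.5% ± 2.74 and 25.2% ± 2.34 in the same order of ages. The P5 value lay between P1 and P10 in 660 of the 730 (90.4%) and 55 of the 65 (84.6%), beside 52.1% of all windows. P20 was above E18.5 in 709 of the 730 (97.1%) and 5 of the 65 (7.69%), beside 77.4% of all windows. The P5 share shares its P1 and P10 values with the choice of windows, and the P20 share does not.

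Named windows differed in how they went on after P10. Mn1 stood at 18.01% ± 2.51 at E18.5 (SD, n = 4) and 57.8% ± 9.96 at P20 (SD, n = 5). Fgg stood at 74.6% ± 0.950 at E18.5 (SD, n = 3) and 32.2% ± 13.7 at P20 (SD, n = 5), and Scarb1 at 81.7% ± 1.38 (SD, n = 3) and 28.1% ± 6.17 (SD, n = 4). Both were thus lower at P20 than their P10 means of 50.2% and 57.1%. The Snrpn window stood at 16.2% ± 10.5 at P20, and the exonic Gata2 window at 15.7% ± 9.36.

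**Figure D4:**
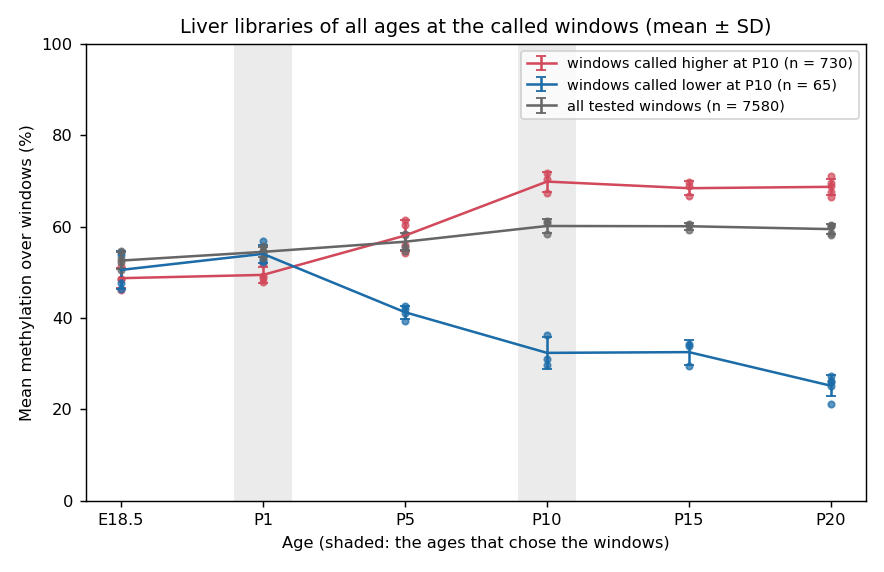
Mean methylation in percent (vertical axis) of the windows called higher, those called lower and all 7580 windows in the liver libraries of each age (horizontal axis), each point a library with the mean and SD over libraries. Windows called higher went from 48.7% at E18.5 to 68.7% at P20 and those called lower from 50.5% to 25.2%, and P1 and P10 are the ages that chose them.

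A second assay, locus-specific bisulfite sequencing (LSBS) of PCR products, measured 124 CpGs of 11 amplicons in 5 P1 and 6 P10 livers, 7 of which were also in the RRBS groups. Amplicons are named after the nearest gene and lay outside its body, at distances of 1148 bases for Ehbp1, 1356 for Rab3a, 2247 for Dusp4, 2572 for Gm17671, 4598 for Klf9, 6411 for Chst8, 18227 for Bmf, 46834 for Bcl11b, 53778 for Rap1b, 114529 for Kcna5 and 364178 for Galr1. The study drew the loci at random from its earlier RRBS of another cohort of livers. With limma, 85 CpGs were called (68.5%), 60 of them higher at P10 (48.4%) and 25 lower, and the changes ran from -32.5 to 40.6 points. The total of 85 was 82 to 88 with any liver left out.

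At the amplicon near Ehbp1, an endocytic adaptor gene, all 13 CpGs rose, and the naming CpG stood at 6.83%, 7.69%, 6.84%, 10.1% and 3.91% at P1, with a lowest, median and highest P10 liver of 25.8%, 29.7% and 41.2%. No liver overlapped, and that CpG rose by 24.9 points (limma, adjusted p = 1.42e-05). At the amplicon nearest Bmf, a proapoptotic gene, all 14 CpGs fell, and the naming CpG stood at 55.3%, 62.6%, 59.5%, 62.5% and 61.5% at P1 and at 32.8%, 40.5% and 47.1% (lowest, median and highest) at P10. It changed by -20.1 points with no overlap (limma, adjusted p = 1.84e-05). The whole Bmf amplicon changed from 65.9% ± 1.88 (SD, n = 5) to 38.6% ± 2.74 (SD, n = 6). The amplicon near Rab3a, a vesicle GTPase gene, had 13 of 15 CpGs called higher and all 15 with a higher mean at P10, with amplicon means of 5.83% ± 0.739 at P1 and 19.3% ± 3.19 at P10.

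At the other amplicons some CpGs passed the test and others did not. All 6 CpGs of the Galr1 amplicon were called higher, as were 10 of 11 of the Kcna5 amplicon, 10 of 18 of the one near Dusp4, a phosphatase gene, and 7 of 12 of the Bcl11b amplicon. In the Kcna5, Dusp4 and Bcl11b amplicons the P10 mean was above the P1 mean at every CpG, called or not. Near Klf9, a Krüppel-like factor gene, 7 of 10 were called lower and all 10 had a lower mean at P10. The amplicon near Chst8, a sulfotransferase gene, had 4 CpGs called lower and 1 called higher of 11, and by the means 9 were lower and 2 higher. The Rap1b amplicon had no call among 6 CpGs and the Gm17671 amplicon none among 8. Only 11 CpGs were measured by both assays, of which 7 differed in the same direction.

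**Figure D5:**
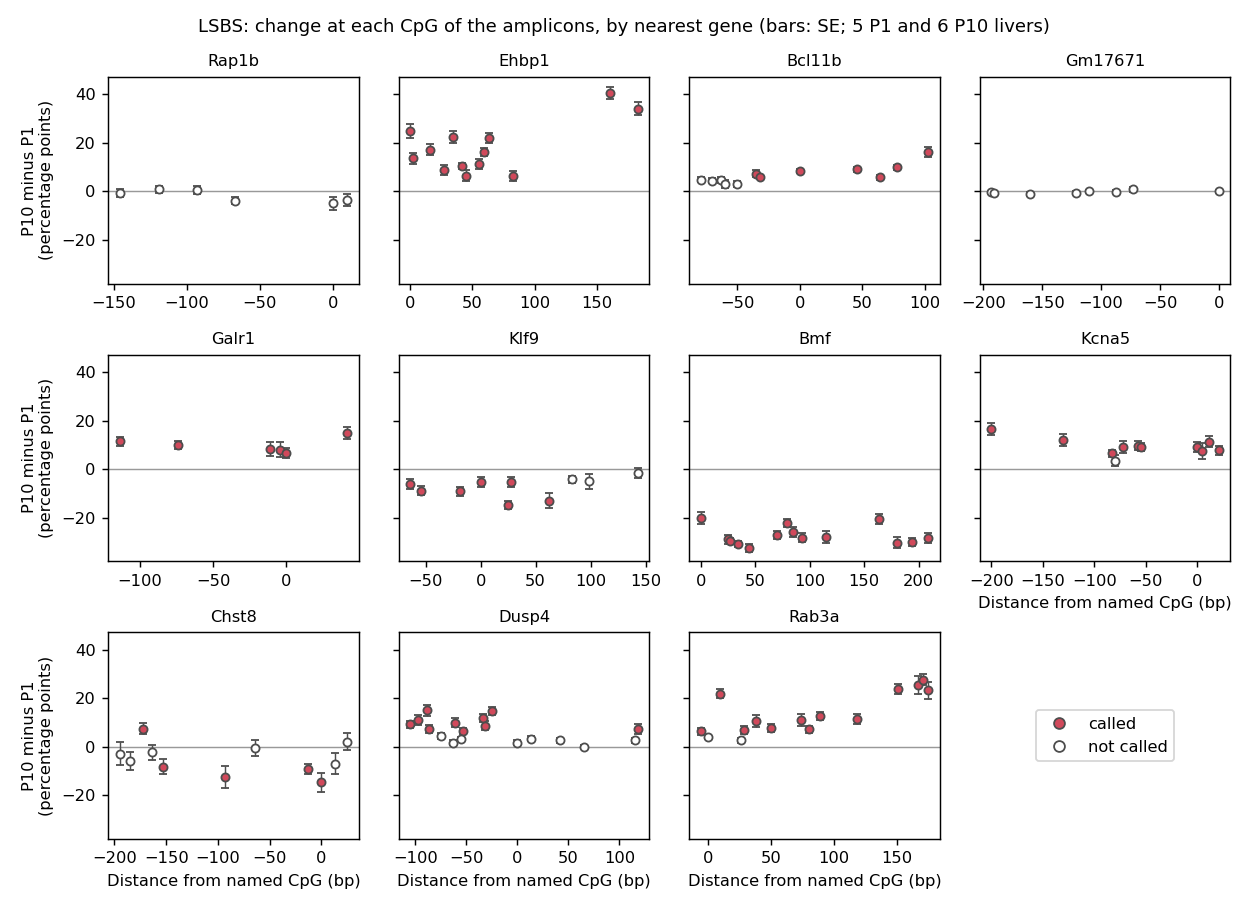
Difference P10 minus P1 in percentage points (vertical axis, bars SE) of each of the 124 LSBS CpGs against its distance in bp from the naming CpG (horizontal axis), with a panel for each amplicon and filled points for called CpGs. All 14 CpGs of the Bmf amplicon lie below 0 and all 13 of the Ehbp1 amplicon above it, the extremes being -32.5 and 40.6 points.

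Muscle of the same strain and ages (5 P1 and 4 P10 libraries) allowed the change itself to be compared between tissues. At the 24816 CpGs with a value in all libraries of both tissues, muscle stood at 47.5% ± 1.83 at P1 and 49.3% ± 1.45 at P10, a difference of 1.76 points (exact permutation test, p = 0.159). Liver differed by 5.5 points at the same CpGs, and the difference between the changes, 3.74 points, did not pass (exact permutation within tissues, 4410 combinations, p = 0.20). Library numbers recur in both tissues (1, 2, 3 and 5 at P1, 1 and 4 at P10), and the labels do not say whether they mark the same mice, so the tissues may share animals. This test and the interaction below treat the libraries as independent. In muscle alone limma called 0 of 3121 windows (0.0%), with 308 at an unadjusted p under 0.05, and 2 of 46077 CpGs.

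Tested as an interaction with limma, the change differed between liver and muscle at 33 of 3121 windows (1.06%) and 12 of 33872 CpGs (0.0354%). On the logit scale the counts were 4 and 2. The windows that rose in liver and were measured in both, 299 in all, had a median change of 18.9 points in liver and 1.43 in muscle, and 25 of them were among the 33. Over all 3121 windows the medians were 4.84 and 1.5. The 36 that fell in liver had medians of -20.7 and -1.54, and 3 were among the 33. These windows were chosen by the liver values that the interaction uses again, so the gap to muscle and the overlap are descriptions. At the Mn1 window described above, the 19 CpGs measured in both tissues were 20.3 points higher at P10 in liver and 12.8 points higher in muscle (16.8% and 29.6%), and the difference of 7.45 points between the changes did not pass (limma, interaction adjusted p = 0.465). Another window at Mn1, with 6 CpGs, went from 8.86% to 36.0% in liver and from 7.28% ± 3.29 to 13.1% ± 6.39 in muscle (limma, interaction adjusted p = 0.0913). At Stat5a the changes of the tissues differed by 40.8 points and missed the limit (limma, interaction adjusted p = 0.1001). The count of 33 was 8 without liver P10 replicate 4 or liver P1 replicate 5 and 58 without liver P10 replicate 1. The count of 12 was 0 without liver P10 replicate 4, without liver P1 replicate 2, 3 or 5, without muscle P10 replicate 5 and without muscle P1 replicate 1, 2 or 4.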

How the data were processed

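Liver DNA was cut with MspI, adapter-ligated, bisulfite-treated and sequenced (RRBS), and chosen loci were amplified after bisulfite treatment (LSBS). The authors mapped reads to mm9 with Bismark 0.7.6 and Bowtie2 per the labels, and deposited the methylated share of reads per CpG as a fraction, with at least 10 reads per value for RRBS and 100 for LSBS. Read numbers per value are not in the tables used here. Muscle RRBS tables were used for one comparison and heart tables were not used. In all, 4 columns matched no sample and were not used.

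Fractions were multiplied to percent. Groups came from the labels. CpGs with at least 3 P1 and 2 P10 values, 1-kb windows of at least 3 such CpGs, and LSBS CpGs were tested with limma 3.58.1 in R 4.3.3, with limits of 0.1 on p after Benjamini-Hochberg adjustment and 5 percentage points on the difference. Library means were compared with exact permutation tests. Replicates of a tissue and age were separate animals. Named windows were the 4 called with most CpGs in each direction. Named CpGs were the 6 of smallest p in each direction, since none was called, with a value in all 7 libraries. Up to 6 genes per list were named by a called window in the body or 5 kb upstream, and 1 CpG per amplicon. The members, lists and tests were chosen with earlier results of these data known. The fits were tested on simulated data with the libraries' own spread. The CpG fit recovered 0% of 200 CpGs changed by 30 points but 66.1% of 7000, among 69804. The window fit recovered 36.0% of 200 windows changed by 20 points and 65.8% of 800, among 7580. Unchanged members made up 12.1% of the calls with 7000 CpGs changed, and 11.1% and 10.1% with 200 and 800 windows. The changes were added toward the middle of the range and without a general gain, unlike the measured livers. Alternatives covered the scale, filters, window size, library centring, the replicate block, all 23 liver libraries and leaving out each library.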

Additional observations from a re-analysis of the deposited data

Results flagged for a closer look

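Of 67 groups of libraries checked for one far from the others, 4 held such a library, and chance gives about 1 in 20. In the class of CpGs at 0 to 20% in E18.5 livers, P1 replicate 1 had a mean of 7.98%, below the others at 8.45% to 8.49%. At the CpG in 4933407C03Rik, P1 replicate 1 stood at 20.8% and the others at 32.7% to 33.8%. At the LSBS CpG that names Chst8, P1 replicate 2 stood at 90.1% and the others at 71.3% to 75.2%, and P10 replicate 4 stood at 73.8% and the others at 56.5% to 61.2%.

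The change from P1 to P10 differed between liver and muscle at 12 CpGs and 33 windows by the limma interaction. The windows with the smallest p, picked after their values were seen, lay at Synpo, Rfx8, Map3k14, Gm20388 and Stap2. Liver exceeded muscle in its change by 50.2 points at Synpo, 33.0 at Rfx8, 41.6 at Map3k14, 39.7 at Gm20388 and 29.96 at Stap2. Map3k14 went from 16.1% to 39.3% in liver and from 47.9% ± 9.88 to 29.5% ± 8.84 in muscle (SD, n = 5 and 4). Stap2 went from 13.7% to 44.7% in liver and from 8.44% ± 2.05 to 9.47% ± 4.41 in muscle. The Gm20388 and Synpo windows are others than those at the same genes that fell in liver.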

How the results depend on the processing

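On the 7 libraries, 0 CpGs were called by limma also with a minimum of 2 values per age, a limit of 30 points, an adjusted p of at most 0.05, autosomes only, the mm10 table, the replicate block, centring or any library left out (0 to 0). It was 42 in a linear model without moderation, 455 with Storey q-values, 719 on the logit scale, 724 with all 23 libraries and 502 among CpGs complete in 7. The total of 724 was 563 on the logit scale and 52 to 628 with a library left out. The 795 windows were 703 in windows of 0.5 kb and 851 in 2-kb windows, 669 with complete CpGs and 888 on the logit scale, 294 of 2179 with at least 5 CpGs (fewer windows tested), but 194 after centring (chosen after seeing the data, as was the logit scale for windows), 217 to 684 with a library left out and 0 with the replicate block. The replicate numbers named different animals and did not pair them: deviations of same-numbered libraries correlated at 0.0291 and 0.00900 in RRBS and at -0.204 to 0.0187 in LSBS, where the block gave 86 calls for 85. The difference of library means was 8.09 points for medians (exact permutation p = 0.0571) and 5.55 to 7.2 with a library left out, where p cannot go below 0.0667 or 0.10. All 5 classes and 4 contexts stayed higher at P10 (5 to 5 and 4 to 4). LSBS calls ran from 82 to 88. The 12 interaction CpGs were 2 and the 33 windows 4 on the logit scale, and 0 to 42 and 8 to 58 with a library left out. No named window or CpG reversed, and of the 19 named windows 3 (Map3k1, Pax5 and the one of Elane and Prtn3) were no longer called on the logit scale and 13 after centring. With a library left out 75 of 131 values did not pass. The cause was not tested. The unknown depth per CpG limits what a single value can show.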
